A study of Mus musculus with 15 samples.

Results

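Ucn3, Slc2a2, G6pc2, Mlxipl and Npas4 are 5 mouse genes that link blood glucose to the output of the pancreatic beta cell. They were taken by symbol from the deposited count table, where each has 1 of the 24060 entries, and all 5 were among the 15460 genes that passed the filter on low counts. RNA came from bulk pancreatic islets of FVB/NJ mice aged 9 to 10 weeks, in 5 groups of 3 libraries: wild type (WT), hIAPP (a human IAPP transgene under the insulin II promoter), rIAPP (a rodent IAPP transgene under the same promoter), hCAST (a human CAST transgene under the same promoter) and hIAPP_hCAST (the human IAPP transgene under the insulin II promoter together with human CAST under insulin). Islet amyloid polypeptide (IAPP) is a peptide stored and released with insulin; its human form can assemble into amyloid, unlike that of rodents. The product of CAST is calpastatin, the inhibitor of the calpain proteases. Libraries are numbered 1 to 3 within a group in the order of deposit, and nothing in the labels says whether a library is 1 mouse or a pool. The title numbers of WT and hCAST interleave in one range and those of hIAPP and hIAPP_hCAST in another, with rIAPP in a range of its own, so in every comparison across these ranges, hIAPP and rIAPP against WT included, whatever the ranges stand for cannot be told apart from the group. The same holds for transgene line and litter.

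Glucose enters a rodent beta cell mainly through the transporter GLUT2, the product of Slc2a2, and is then phosphorylated. The islet glucose-6-phosphatase G6pc2 reverses that step and so sets how much glucose passes into glycolysis. Glycolytic metabolites activate ChREBP, the transcription factor encoded by Mlxipl, while ATP closes the KATP channel (Abcc8 and Kcnj11), calcium enters, insulin is released and the calcium-induced transcription factor gene Npas4 is switched on. Urocortin 3, from Ucn3, is released with insulin and acts on delta cells through the receptor Crhr2 to promote somatostatin release, and in mice it marks mature beta cells.

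The windows show sequence just upstream of a start site and do not cover distant regulatory sequence. They are given for the 3 members called lower than in WT in both hIAPP and rIAPP (Ucn3, Slc2a2 and G6pc2). Mlxipl is added because its product binds a motif of the CACGTG type. Each window runs 5′ to 3′ on the strand of the gene, holds the 250 bases before the start site, and comes from RefSeq on GRCm38.p6. Capitals mark matches on either strand to TAAT, a core read by homeodomain factors such as Pdx1 and Nkx6-1, or to CACGTG.
Ucn3, chr13:3945350-3945599, minus strand: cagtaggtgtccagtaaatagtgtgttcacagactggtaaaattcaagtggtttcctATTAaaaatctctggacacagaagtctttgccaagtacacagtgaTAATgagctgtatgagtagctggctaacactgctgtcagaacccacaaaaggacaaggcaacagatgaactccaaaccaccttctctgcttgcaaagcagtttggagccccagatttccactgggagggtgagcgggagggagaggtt
Slc2a2, chr3:28697653-28697902, plus strand: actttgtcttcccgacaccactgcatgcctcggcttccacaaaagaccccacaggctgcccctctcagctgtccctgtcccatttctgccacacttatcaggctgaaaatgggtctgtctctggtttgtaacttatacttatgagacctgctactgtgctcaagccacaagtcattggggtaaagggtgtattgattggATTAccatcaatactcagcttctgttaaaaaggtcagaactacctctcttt
G6pc2, chr2:69210823-69211072, plus strand: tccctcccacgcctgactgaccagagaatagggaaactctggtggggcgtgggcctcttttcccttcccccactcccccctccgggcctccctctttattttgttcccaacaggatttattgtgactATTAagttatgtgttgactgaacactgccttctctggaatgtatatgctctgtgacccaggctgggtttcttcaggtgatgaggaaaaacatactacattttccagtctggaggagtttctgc
Mlxipl, chr5:135089640-135089889, plus strand: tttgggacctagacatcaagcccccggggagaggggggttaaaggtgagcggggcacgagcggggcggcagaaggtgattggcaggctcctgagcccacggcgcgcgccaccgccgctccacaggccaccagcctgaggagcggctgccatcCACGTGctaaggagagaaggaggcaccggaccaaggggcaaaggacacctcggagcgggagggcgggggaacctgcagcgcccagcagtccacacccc
TAAT had 2 matches before Ucn3, at 193 and 148 bases before the start site, 1 before Slc2a2 at 51 bases and 1 before G6pc2 at 123 bases. It occurred in 54.9% of 32851 mouse windows of that length, so a match is common. CACGTG occurred in 6.02% of the windows, and the match before Mlxipl lay 98 bases before the start site. The further motifs searched on both strands were TGACGTCA (a cAMP response element, in 1.55% of windows), its partial form TGACG (17.8%, contained in the former), TGCTGA (a Maf element, 16.1%) and TATAAA (12.4%), and none of these was in the printed windows. The Npas4 window held TGACG on both strands, at 179 and 169 bases before the RefSeq start site. RefSeq also lists a later start site for G6pc2 and for Mlxipl, with 3 matches to TAAT before each and 2 to TGCTGA before that of G6pc2. These matches are letters in a window, with no binding measured here.

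In the GENCODE vM21 annotation of GRCm38 the genes lie on different chromosomes: Ucn3 on chromosome 13 at 3940688 to 3945349 on the minus strand, Slc2a2 on chromosome 3 at 28697903 to 28731359 on the plus strand, G6pc2 on chromosome 2 at 69211073 to 69227841 on the plus strand, Mlxipl on chromosome 5 at 135089890 to 135138382 on the plus strand and Npas4 on chromosome 19 at 4984355 to 4990316 on the minus strand. The antisense genes 1700112D23Rik and Gm43500 overlap Slc2a2 and Mlxipl. Neither is an entry of the count table, and the strand setting of the counting was not given in the sources used here, so reads of these antisense genes could be counted on the member.

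Total depth was 28287011 to 40191501 counts per library. Reads on Rn45s, Lars2 and Mir6236, genes rich in ribosomal sequence, made up 94.3% of the counts in WT 2, 68.9% in WT 3 and 67.7% in rIAPP 2, against 0.286% to 11.8% in the other 12 libraries, which left WT 2 with 1667190 other counts. Levels below are CPM (counts scaled to library size) after TMM scaling, differences are log2 fold changes with their standard error (SE), and the threshold for a call was an adjusted p under 0.05 (edgeR quasi-likelihood test, Benjamini-Hochberg over all tested genes). The labels do not say that libraries came from separate animals, so p-values measure the spread between these libraries only. Islet identity was checked with marker genes: all 7 beta-cell markers were detected in every group, whose summed CPM ranged from 133750 to 163304 across WT libraries, from 94281 to 103911 across hIAPP and from 77105 to 86469 across rIAPP. The sum includes mouse Iapp, so it is not a measure of beta-cell content alone. Of the 7, 4 were called lower in hIAPP than in WT and 6 in rIAPP, beside 5.59% and 12.6% of all tested genes. Ins1 averaged 52701 CPM in WT, 36240 in hIAPP and 19461 in rIAPP.

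Ucn3, the hormone of the set, was lower in all 3 groups that carry an IAPP transgene. The WT libraries had 477, 426 and 464 CPM and the hCAST libraries 401, 382 and 341. The hIAPP libraries had 250.1, 253 and 209 CPM, the hIAPP_hCAST libraries 249.6, 218 and 221, and the rIAPP libraries 137, 119 and 182. Each IAPP transgenic library therefore lay below every WT and hCAST library, and each rIAPP library below every hIAPP library. The hCAST libraries also lay below every WT library, but that difference did not pass (-0.28 ± 0.126, adjusted p = 0.663). Against WT, Ucn3 was 1.92-fold lower in hIAPP (log2 fold change -0.94 ± 0.127, adjusted p = 0.000377), 1.99-fold lower in hIAPP_hCAST (-0.99 ± 0.127, adjusted p = 0.000707) and 3.12-fold lower in rIAPP (-1.64 ± 0.130, adjusted p = 2.66e-07). The difference between hIAPP and rIAPP passed its own test (0.70 ± 0.126, adjusted p = 0.00116).

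Slc2a2, the glucose transporter, showed the largest fold difference of the 5 in both hIAPP and rIAPP against WT. Its WT libraries had 914, 733 and 992 CPM and its hCAST libraries 831, 943 and 741. The hIAPP libraries had 455, 320.2 and 329.7 CPM, the hIAPP_hCAST libraries 619, 417 and 457, and the rIAPP libraries 162, 111 and 248. The highest IAPP transgenic library was hIAPP_hCAST 1, still below the lowest WT library. Slc2a2 was 2.39-fold lower in hIAPP than in WT (-1.26 ± 0.258, adjusted p = 0.00946) and 5.06-fold lower in rIAPP (-2.34 ± 0.267, adjusted p = 4.99e-05). In hIAPP_hCAST the difference from WT was -0.82 ± 0.256 and missed the threshold (adjusted p = 0.0990, passing in 3 of 25 alternatives on counts, namely DESeq2 and the fits without rIAPP 2 or rIAPP 3). hIAPP exceeded rIAPP by 1.08 ± 0.257 (adjusted p = 0.0141), a call lost without hIAPP 1 (adjusted p = 0.0647), rIAPP 1 (0.0601) or the 3 ribosomal-rich libraries (0.0532), and when only these groups were fitted (0.129).

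G6pc2, the enzyme that removes the phosphate from glucose phosphate, fell most in rIAPP. WT libraries had 2683, 3016 and 2199 CPM, hCAST libraries 2158, 2873 and 2413, and hIAPP libraries 1772, 1924 and 1452. The hIAPP_hCAST libraries had 1790.4, 1814 and 1291 CPM and the rIAPP libraries 771, 538 and 894. The rIAPP libraries stood below all others, while hIAPP and hIAPP_hCAST overlapped each other and lay below WT. In rIAPP, G6pc2 was 3.58-fold lower than in WT (-1.84 ± 0.193, adjusted p = 6.23e-06), and hIAPP exceeded rIAPP by 1.22 ± 0.190 (adjusted p = 0.000375). In hIAPP the difference from WT was -0.62 ± 0.188 at an adjusted p of 0.0445, and that call held in 12 of 25 alternatives on counts. It was lost when WT 1, WT 2, hCAST 3, hIAPP_hCAST 1, rIAPP 1 or any of the hIAPP libraries was left out (adjusted p = 0.0514 to 0.154). Without the 3 ribosomal-rich libraries, with WT 1 the only WT library, the difference was -0.65. Scaling to pan-endocrine genes gave -0.35 (adjusted p = 0.195). In hIAPP_hCAST the difference was -0.69 ± 0.188 and missed the threshold (adjusted p = 0.0564).

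Mlxipl, the gene of ChREBP, had smaller differences than Ucn3, Slc2a2 and G6pc2 in hIAPP and rIAPP. WT libraries had 133, 177 and 102 CPM, hCAST libraries 142, 107 and 100.04, and hIAPP libraries 109, 104 and 84.3. The hIAPP_hCAST libraries had 106, 105 and 127 CPM and the rIAPP libraries 78.9, 75.1 and 96.1. WT 3 lay among the hIAPP libraries, and only the rIAPP group was clear of WT. Mlxipl was 1.60-fold lower in rIAPP than in WT (-0.68 ± 0.190, adjusted p = 0.0205), a call lost without WT 1, WT 2, rIAPP 1 or rIAPP 2 (adjusted p = 0.0577 to 0.0703). Scaling to pan-endocrine genes gave -0.39 and also ended the call (adjusted p = 0.0752). Without the 3 ribosomal-rich libraries, with WT 1 the only WT library, the difference was -0.61. In hIAPP the difference of -0.43 ± 0.189 did not pass (adjusted p = 0.156).

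Npas4, the calcium-induced factor, had the lowest level of the 5 in every library and a wide spread among the WT libraries. The WT libraries had 2.06, 18.8 and 6.78 CPM, from 96, 43 and 88 counts. The hCAST libraries had 3.44, 7.46 and 8.73 CPM and the hIAPP libraries 2.51, 3.10 and 7.38. The hIAPP_hCAST libraries had 5.91, 10.2 and 13.8 CPM, and the rIAPP libraries 1.86, 2.29 and 2.39, from 98, 31 and 107 counts. The standard deviation over the WT libraries was 93.7% of their mean, with the highest value in WT 2, the library with the fewest counts outside the ribosomal-rich genes; the 43 counts there have a 95% Poisson interval of 31.1 to 57.9, which covers counting error only. No difference from WT passed in edgeR: it was -0.45 ± 0.748 in hIAPP (adjusted p = 0.759) and -1.46 ± 0.804 in rIAPP (adjusted p = 0.222), and without WT 2 the hIAPP value was 0.15. DESeq2 gave -2.02 in rIAPP with an adjusted p of 0.0207. The hIAPP_hCAST libraries exceeded the rIAPP libraries by 2.21 ± 0.685 (adjusted p = 0.0471) with no overlap, and this call held in 11 of 25 alternatives on counts and was lost when any rIAPP library, hIAPP_hCAST 2 or 3, WT 3, hCAST 2 or 3, or hIAPP 1 or 2 was left out (adjusted p = 0.0522 to 0.155).

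**Figure D1:**
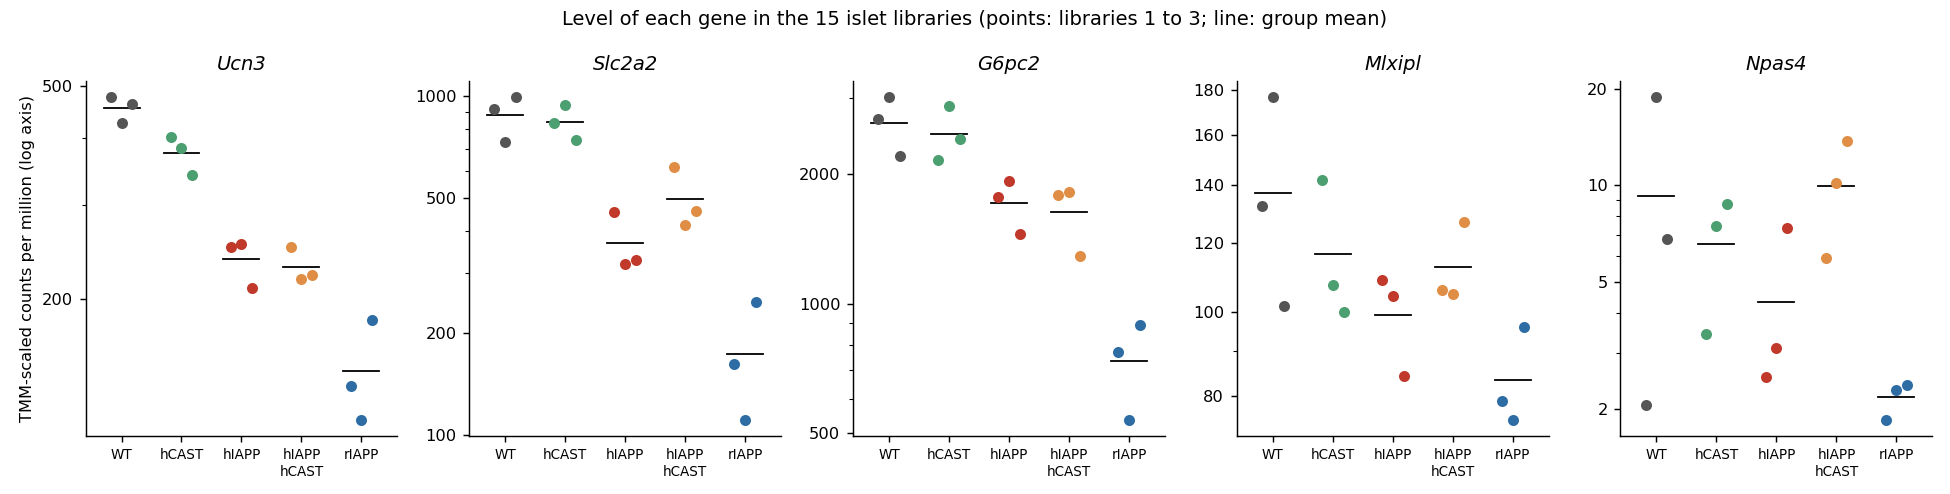
TMM-scaled CPM (log axis) of the 5 genes in each library; points are libraries 1 to 3 from left to right, and the line is the group mean of 3 libraries. For Ucn3, Slc2a2 and G6pc2 every IAPP transgenic library lies below every WT library, with rIAPP lowest, while WT values of Npas4 run from 2.06 to 18.8.

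Read across the genes, 3 of 5 members were called lower in hIAPP than in WT, where 5.59% of all tested genes were, and 4 of 5 in rIAPP, where 12.6% were. The libraries did not overlap with WT for 3 members in hIAPP and 4 in rIAPP, beside 33.1% and 40.6% of all tested genes. The members were chosen with earlier results of these data known, so these shares are a description and not a test of enrichment. In hIAPP_hCAST against WT, 1 of 5 was called lower, beside 1.79% of all tested genes. Human CAST alone gave 0 of 5 calls in edgeR, with 0.0194% of all genes called in either direction; 1 member, Ucn3 at -0.28 ± 0.126, had an unadjusted p under 0.05 (0.0384), and DESeq2 and limma voom called 0. All 3 comparisons of the IAPP transgenics use the same WT libraries, so their values are set side by side and not as independent evidence.

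**Figure D2:**
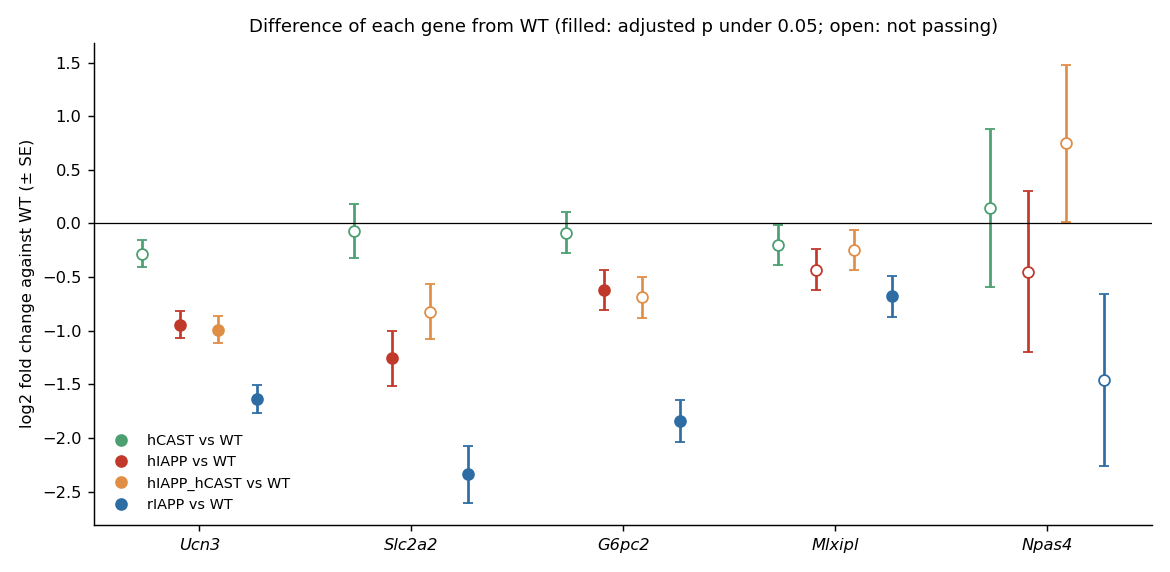
Log2 fold change of each gene against WT in the 4 transgenic groups, with its SE (3 libraries against 3). Filled points pass an adjusted p of 0.05; Ucn3 passes in 3 groups, Slc2a2 and G6pc2 in hIAPP and rIAPP, Mlxipl in rIAPP alone and Npas4 in none.

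In hIAPP against rIAPP, 3 of 5 members were called higher, beside 7.71% of all genes, namely Ucn3, Slc2a2 and G6pc2. In hIAPP_hCAST against rIAPP, 4 of 5 were called higher, beside 9.98%: Ucn3 by 0.65 ± 0.126, Slc2a2 by 1.52 ± 0.260, G6pc2 by 1.15 ± 0.189 and Npas4 as above. Mlxipl did not pass in either, at 0.25 ± 0.184 (adjusted p = 0.465) and 0.43 ± 0.184 (adjusted p = 0.131).

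The hCAST libraries served as a further background. Against hCAST, 2 of 5 members were called lower in hIAPP (2.15% of all genes), Ucn3 by -0.66 ± 0.126 (adjusted p = 0.00480) and Slc2a2 by -1.19 ± 0.257 (adjusted p = 0.0155). The Slc2a2 call was lost without hCAST 1, hCAST 2, hIAPP 2 or hIAPP 3, at adjusted p of 0.0559 to 0.0750. In rIAPP, 3 of 5 were called lower (11.8% of all genes), with Slc2a2 4.81-fold, G6pc2 3.38-fold and Ucn3 2.56-fold below hCAST. In hIAPP_hCAST against hCAST, 1 of 5 was called lower (0.233% of all genes): Ucn3, at -0.71 ± 0.126 with an adjusted p of 0.0130, which was lost without hCAST 1, hCAST 2 or hIAPP_hCAST 2 (adjusted p = 0.0531 to 0.0792).

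Whether human CAST alters the effect of human IAPP on these genes is the question of the comparison of hIAPP_hCAST with hIAPP and of the interaction, which sets the effect of human IAPP in islets that carry hCAST against its effect in islets that do not. Slc2a2 averaged 498 ± 107 CPM in hIAPP_hCAST and 368 ± 75.4 in hIAPP (SD, n = 3), with overlapping libraries and a log2 difference of 0.43 ± 0.254 (adjusted p = 0.576). Npas4 averaged 9.94 ± 3.94 and 4.33 ± 2.66 CPM (difference 1.20 ± 0.617, adjusted p = 0.518). Ucn3 differed by -0.05 ± 0.125, G6pc2 by -0.07 ± 0.187 and Mlxipl by 0.18 ± 0.183. In this comparison 0 of 5 members were called by edgeR, with 0 at an unadjusted p under 0.05 and 0 by DESeq2 or voom, beside 0.466% of all genes. For the interaction the same 4 counts were 0, beside 0% of all genes, with values of 0.24 ± 0.178 for Ucn3, 0.51 ± 0.359 for Slc2a2 and 1.05 ± 0.961 for Npas4.

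The order of the group means was WT, hCAST, hIAPP, hIAPP_hCAST, rIAPP for Ucn3 and G6pc2, and WT, hCAST, hIAPP_hCAST, hIAPP, rIAPP for Slc2a2 and Mlxipl. Among neighbours in these orders, hCAST and hIAPP differed for Ucn3, and the group next above rIAPP differed from it for Ucn3, Slc2a2 and G6pc2. No neighbours passed for Mlxipl. For Npas4 the order was hIAPP_hCAST, WT, hCAST, hIAPP, rIAPP, and no neighbours passed. The place of WT there rests on WT 2 at 18.8 CPM, and the fitted difference of hCAST from WT had the opposite sign to these means, 0.14 ± 0.738.

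In bulk islets, fewer beta cells and less RNA of a gene per beta cell cannot be told apart. Ratios within a library avoid the scaling between libraries, and FPKM (fragments per kilobase of gene, scaled to depth) allows genes to be compared per length. In all 15 libraries the FPKM order was G6pc2 highest, then Ucn3 and Slc2a2, then Mlxipl, then Npas4. G6pc2 had 3.26 to 4.87 times the FPKM of Ucn3 in WT. Slc2a2 per Ucn3 was 1.10, 0.989 and 1.23 in the WT libraries, 1.05, 0.729 and 0.905 in hIAPP, and 0.681, 0.539 and 0.781 in rIAPP. The rIAPP libraries lay below all WT libraries in this ratio, so Slc2a2 was lower relative to Ucn3 as well as to the total.

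Set against Ins2, a gene of insulin that itself fell (log2 fold change -0.71 ± 0.113 in hIAPP and -1.33 ± 0.114 in rIAPP), the members separated. G6pc2 per 1000 FPKM of Ins2 was 11.2, 11.9 and 10.2 in the WT libraries and 11.6, 13.3 and 10.8 in hIAPP, which overlap. In rIAPP the same ratio was 7.67, 6.36 and 9.13, below every WT library. Slc2a2 per 1000 Ins2 was 3.19, 2.42 and 3.83 in the WT libraries, 2.48, 1.85 and 2.04 in hIAPP and 1.35, 1.10 and 2.11 in rIAPP. Only the rIAPP libraries were clear of WT, and hIAPP overlapped it through WT 2 alone. The hCAST libraries, at 3.645 to 4.26, lay above every hIAPP and rIAPP library. Ins2 itself was also lower in hCAST than in WT, at 43855 to 50130 against 56909 to 66675 CPM. That raises each ratio to Ins2 in hCAST, those of Ucn3 and G6pc2 included. Ucn3 per 1000 Ins2 was 2.89, 2.44 and 3.12 in the WT libraries, 2.37, 2.54 and 2.26 in hIAPP and 1.99, 2.04 and 2.71 in rIAPP, and both groups overlapped WT. The overlaps of Ucn3 also rest on WT 2, the library with the fewest counts outside the ribosomal-rich genes. Ucn3 per 1000 Ins2 in hCAST, at 2.97 to 3.06, lay above every hIAPP and rIAPP library. G6pc2 per 1000 Ins2 was 11.3 to 15.5 in hCAST, overlapping hIAPP and above rIAPP. No test was run on these ratios.

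**Figure D3:**
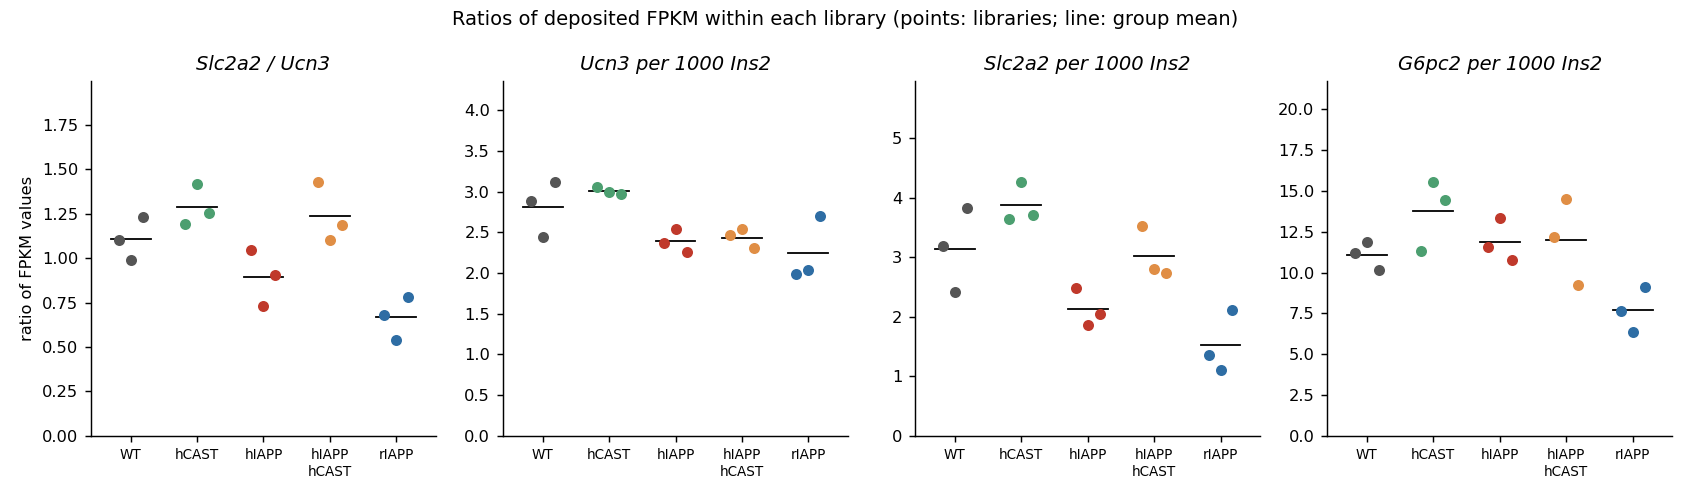
Ratios of deposited FPKM within each library, on linear axes from 0; points are libraries and lines are means of 3. The G6pc2 to Ins2 ratio of hIAPP overlaps WT (10.8 to 13.3 against 10.2 to 11.9), whereas that of rIAPP, 6.36 to 9.13, lies below it.

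Markers of other cells moved with some of these differences. The 19 acinar markers, genes of the enzyme-secreting cells around islets, summed to 12626 to 57752 CPM in WT, 48918 to 107385 in hIAPP and 77084 to 108229 in rIAPP, with 0 of 19 called in hIAPP and 1 of 19 in rIAPP. With the acinar level as a covariate, Ucn3 differed from WT by -0.94 in hIAPP and -1.64 in rIAPP, and Slc2a2 by -1.19 and -2.24; all 4 passed, as did G6pc2 at -0.77 and -2.04. The same covariate ended the calls of Mlxipl in rIAPP against WT (-0.61, adjusted p = 0.0782) and of Npas4 in hIAPP_hCAST against rIAPP (1.92, adjusted p = 0.0968), and G6pc2 newly passed in hIAPP_hCAST against WT (-0.74, adjusted p = 0.0240). The 11 macrophage markers summed to 73.1 to 107 CPM in WT, 296 to 416 in hIAPP, where 10 of 11 rose, and 63.1 to 83.2 in rIAPP, where 0 rose; of 10 stellate and pericyte markers 7 rose in both. The 8 endothelial markers summed to 555 to 667 CPM in WT, 618 to 651 in hIAPP and 788 to 812 in rIAPP, where 6 of 8 rose, while 0 rose and 1 fell in hIAPP. The share of all tested genes called higher is not given here, so these counts of rises stand without it. The part of these cells in the values of the members was not tested. Hepatocytes are the other main site of Slc2a2 and Mlxipl. The 5 hepatocyte markers summed to 562 to 798 CPM in WT, 621 to 688 in hIAPP and 458 to 491 in rIAPP. Nearly all of this was Ttr, which alpha cells also express, at 639 CPM on average in WT; Alb averaged 2.62 CPM, Fgb 0.345 and Apoa1 0.0215, and 1 marker of the 5 was at 0 in WT.

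Around Slc2a2 and G6pc2 stand the other genes of glucose entry and breakdown. Of 26 tested, 1 rose and 2 fell in hIAPP, and 2 rose and 6 fell in rIAPP, where 5.59% and 12.6% of all tested genes fell. No such share is given here for rises, so the counts of rises stand without it. The list medians were 0.06 and -0.05, beside 0.02 and 0.01 over all tested genes. Pfkfb2, which makes the activator of phosphofructokinase, fell by 0.44 ± 0.0986 in hIAPP and by 1.12 ± 0.1002 in rIAPP. Pcx, the pyruvate carboxylase of anaplerosis, fell by 1.10 ± 0.140 in rIAPP and stood at -0.09 ± 0.138 in hIAPP, with a difference between the transgenic groups of 1.005 ± 0.137 (adjusted p = 0.000138). Pkm, a pyruvate kinase, fell in both, and the phosphofructokinase subunit Pfkp rose in both, by 0.38 and 0.56. Leaving out hIAPP 2 reduced the count of falls in hIAPP to 1, and leaving out rIAPP 2 reduced that in rIAPP to 3. The count of rises ran from 0 to 2 in hIAPP (moved by WT 3, hIAPP_hCAST 2 and hIAPP_hCAST 3) and from 1 to 3 in rIAPP (moved by WT 1 and WT 3).

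Of 12 genes listed around KATP channel closure and calcium entry, 0 rose and 4 fell in hIAPP, and 2 rose and 5 fell in rIAPP, where 5.59% and 12.6% of all tested genes fell. For the rises, no share over all tested genes is given here. The list also holds genes of other roles in the cell, Slc30a8, Scn9a and Syt7. Both channel subunits fell in rIAPP and did not pass in hIAPP. Abcc8 had 855, 625 and 878 CPM in the WT libraries, 841, 811 and 762 in hIAPP and 356, 266 and 419 in rIAPP, and Kcnj11 had 126, 119.9 and 118 in WT, 112, 104 and 107 in hIAPP and 67.5, 49.3 and 74.7 in rIAPP. Abcc8 fell by 1.18 ± 0.147 and Kcnj11 by 0.92 ± 0.106 in rIAPP, and hIAPP exceeded rIAPP by 1.21 ± 0.147 and 0.75 ± 0.103 (adjusted p = 2.96e-05 and 9.43e-05). Trpm5, a calcium-activated cation channel, fell by 1.68 ± 0.297 in hIAPP and by 2.51 ± 0.309 in rIAPP. Slc30a8, the zinc transporter of insulin granules, fell by 0.60 ± 0.171 and 1.22 ± 0.173. The calcium channel subunit Cacna2d1 went opposite ways, falling by 0.28 in hIAPP and rising by 0.26 in rIAPP, with a direct difference of -0.53 ± 0.0790 (adjusted p = 0.000183). Without WT 1, hIAPP 2 or hIAPP 3 the count of falls in hIAPP went as low as 2. The count of rises in rIAPP was 1 without WT 3, rIAPP 1 or rIAPP 2.

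Of 17 tested partners and glucose-responsive targets of ChREBP, 0 rose and 3 fell in hIAPP, and 0 rose and 5 fell in rIAPP. Of all tested genes, 5.59% and 12.6% fell, and the share that rose is not given here. The list medians were 0.07 and -0.15, beside 0.02 and 0.01 over all tested genes. Mlx, the obligate partner of ChREBP, stood at 0.07 ± 0.0969 in hIAPP and 0.10 ± 0.0979 in rIAPP, neither passing. Txnip, a much used readout of ChREBP activity, had 251, 358 and 321 CPM in the WT libraries and 320.3, 311 and 291 in rIAPP, which overlap (log2 fold change -0.0044 ± 0.132), and stood at 0.25 ± 0.131 in hIAPP. The genes that fell in both were Rgs16 (by 0.32 and 1.19), Khk, the ketohexokinase (by 0.51 and 0.60), and Acly, the ATP citrate lyase (by 0.46 and 0.64). Elovl6, a fatty acid elongase, fell by 0.93 ± 0.0775 in rIAPP. Leaving out WT 3, hIAPP 2 or hIAPP 3 took the count of falls in hIAPP as low as 1. The count of rises went up to 3 in hIAPP and 1 in rIAPP when 1 library was left out (WT 3, hCAST 3, hIAPP_hCAST 2 or 3 for either, hIAPP_hCAST 1 for hIAPP and hCAST 1 for rIAPP).

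Npas4 belongs to the genes that neural and endocrine cells switch on upon calcium entry. The list set around it holds activity-regulated genes and also Npas4 partners and regulators, such as Arnt, Arnt2 and Crtc2. Of its 23 tested genes, 7 rose and 0 fell in hIAPP against WT, and 4 rose and 0 fell in rIAPP. The list medians were 0.70 and 0.50, beside 0.02 and 0.01 over all tested genes. The share of all tested genes called higher is not given here, so these rises cannot be read as a trait of the list. The immediate early gene Fos had 43.6, 107 and 93.0 CPM in the WT libraries, 218, 150.4 and 435 in hIAPP and 205, 181 and 169.8 in rIAPP. It rose by 1.79 ± 0.512 in hIAPP (adjusted p = 0.0483) and stood at 1.25 ± 0.508 in rIAPP (adjusted p = 0.103). Egr2 rose in both, by 2.23 ± 0.464 and 1.85 ± 0.478, and Junb, Klf4 and Fosl2 rose in hIAPP by 1.55, 0.87 and 0.72. Nr4a2 rose by 1.02 ± 0.224 in rIAPP and stood at 0.11 ± 0.223 in hIAPP. The counts of rises depend on single libraries: they ran from 0 to 9 in hIAPP and from 0 to 6 in rIAPP when 1 library was left out. WT 1, WT 3, hIAPP 1 and hIAPP 3 move the former, and WT 1, hIAPP 1, rIAPP 1 and rIAPP 2 the latter. Npas4 was not tested against these genes as a group.

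**Figure D4:**
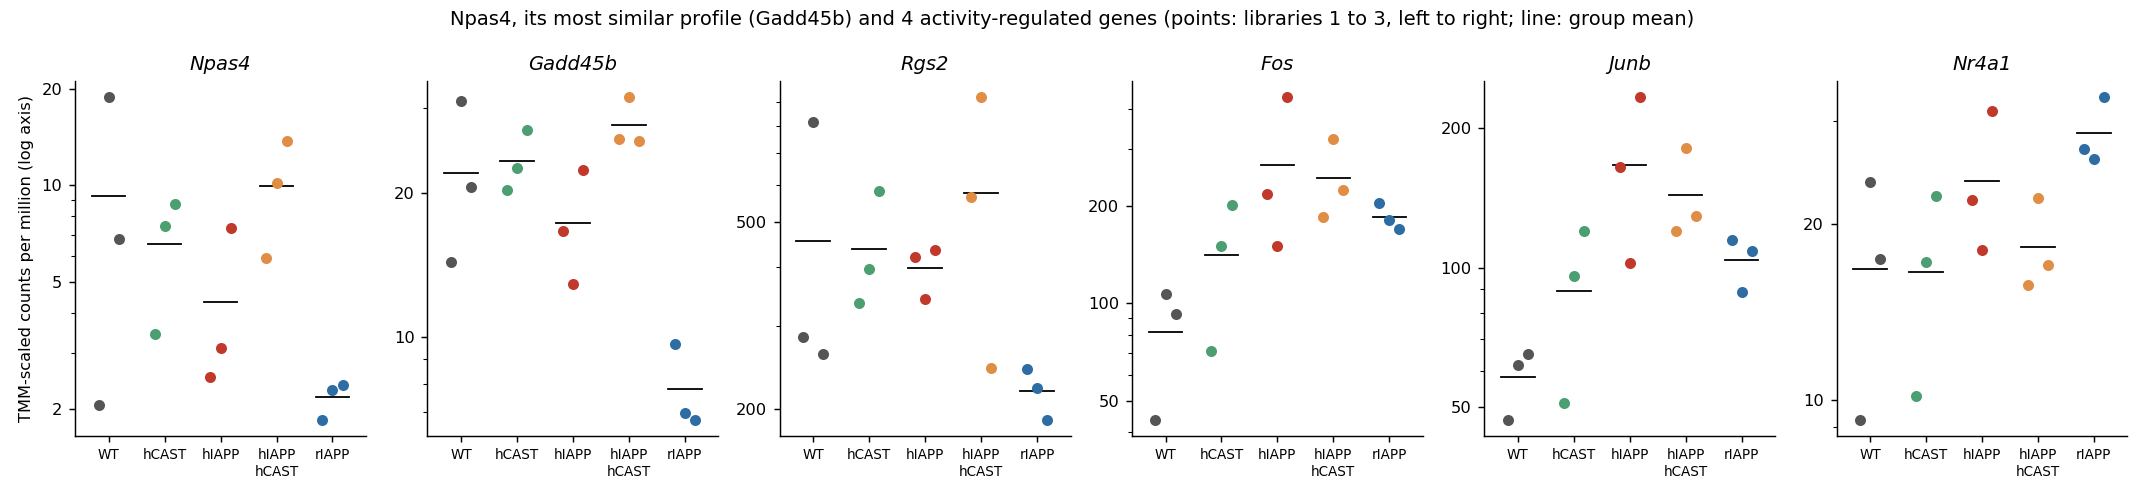
CPM (log axis) of Npas4, of Gadd45b, the gene with the most similar profile, and of 4 activity-regulated genes; points are libraries 1 to 3 from left to right and lines are group means. Npas4 in rIAPP (1.86 to 2.39) overlaps WT, where WT 1 has 2.06. Fos in rIAPP, at 169.8 to 205, lies above every WT library but did not pass the threshold. Libraries of rIAPP and WT do not overlap for 40.6% of all tested genes.

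Downstream of Ucn3, Crhr2, its receptor on delta cells, was near the limit of detection at 0.602, 0 and 0.385 CPM in the WT libraries and 1.17, 1.18 and 0.781 in rIAPP, and passed in no comparison with WT. Sst, the somatostatin gene, had 1462, 1612 and 1623 CPM in the WT libraries, 1295, 1243 and 1562 in hIAPP and 1273, 1217 and 1325 in rIAPP. It fell by 0.30 ± 0.102 in rIAPP (adjusted p = 0.0440). Of the 6 tested genes of urocortin and somatostatin signalling, 0 changed in hIAPP by edgeR. There, 1 had an unadjusted p under 0.05, DESeq2 called 0 and voom called 1. In rIAPP, 1 rose (the receptor Sstr1, by 3.03 ± 0.534) and 2 fell (Sst and Sstr3). Among all tested genes, 5.59% fell in hIAPP and 12.6% in rIAPP. Because the share called higher is not given here, these counts are not read as a trait of the list. The count of falls was 1 when WT 2, WT 3, hCAST 2, hIAPP 1 or any rIAPP library was left out, and the count of rises went up to 2 without rIAPP 3.

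The transcription factors of beta cells include direct activators of the members. Of 17 tested, 0 rose and 5 fell in hIAPP, and 1 rose and 9 fell in rIAPP, where 5.59% and 12.6% of all tested genes fell. Rises again stand without the share of all tested genes called higher. The list medians were -0.28 and -0.29, beside 0.02 and 0.01 over all tested genes. Without hIAPP 1 or hIAPP 3 the count of falls in hIAPP went as low as 1. Pdx1, which activates Slc2a2, had 121, 139.6 and 125 CPM in the WT libraries, 105, 102 and 76.2 in hIAPP and 54.5, 51.3 and 61.0 in rIAPP, falls of 0.43 ± 0.115 and 1.20 ± 0.117, and hIAPP exceeded rIAPP by 0.76 (adjusted p = 0.000194). Mafa, a factor of mature beta cells, fell by 1.75 ± 0.395 in rIAPP and stood at -0.78 ± 0.382 in hIAPP (adjusted p = 0.213). Hnf4a rose by 0.65 ± 0.104 in rIAPP.

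**Figure D5:**
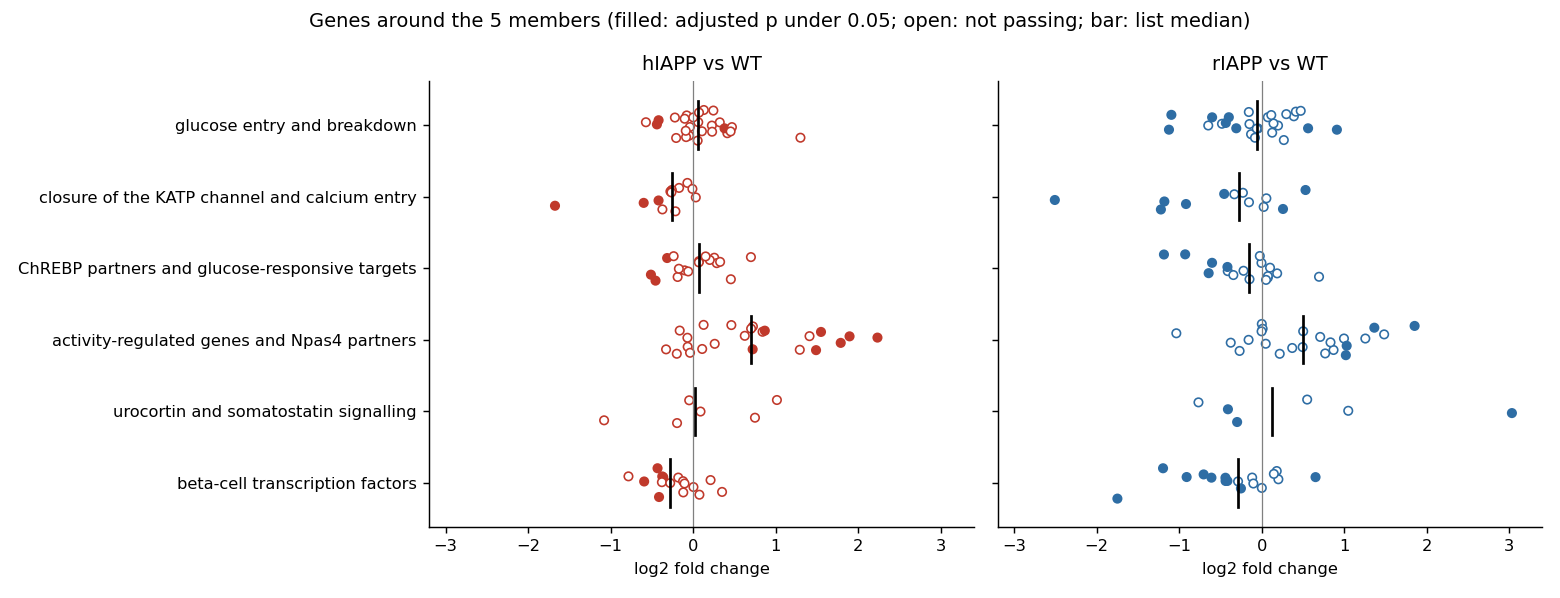
Log2 fold change of every tested gene of 6 pathway lists in hIAPP (left) and rIAPP (right) against WT; filled points pass an adjusted p of 0.05 and bars are list medians. Filled points of the KATP list lie mostly below 0 in both (4 of 4 and 5 of 7), and those of the activity list all lie above it (7 and 4).

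The profiles most like each member were ranked by the root mean square difference of centred log2 CPM over the 15 libraries. The ranking covered 12424 genes with a mean of at least 1 CPM, with predicted genes (Gm and Rik symbols) left out. The nearest to Ucn3 were Tnr, Prkcb and Car10, at 0.165 to 0.179. For Slc2a2 they were Prss53, Ero1lb and Tmem215, at 0.196 to 0.226, and for G6pc2 Tmem163, Tm4sf4 and Cttnbp2, at 0.179 to 0.206. Mlxipl was nearest to Meg3, Ky and Lin7b, at 0.115 to 0.137. For Npas4 the nearest were Gadd45b, BC048546 and Wfikkn2, at 0.527 to 0.610. The measure is not scaled to the spread of each gene, so a gene that varies widely between libraries tends to lie far from all others. Among the members themselves, Ucn3 and G6pc2 were closest, at 0.269, and Slc2a2 lay at 0.382 from G6pc2 and 0.395 from Ucn3. The libraries share group, depth and scaling, so these distances are descriptions without a test.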

How the data were processed

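RNA of bulk islets was measured in 15 libraries; per the labels' protocols, RNA was isolated with an RNeasy kit and sequencing used TruSeq (Ribo-Zero) and NuGEN Ovation reagents. The authors deposited whole-number counts per gene symbol and FPKM; STAR, HTSeq and GRCm38 (mm10) come from the submitters' processing notes, which give no versions. The strand setting and annotation are not given in the sources used here. The deposited FPKM equal the count per gene length and per column total, ribosomal-rich reads included, as judged from the ratio of both tables. Columns were matched to libraries by title, and 0 were left unused.

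Counts were fitted with edgeR 4.0.16 in R 4.3.3 (TMM, default filter by group, robust quasi-likelihood, 1 coefficient per group over all 15 libraries; common biological coefficient of variation 0.132), with 10 pairwise contrasts and 1 interaction and Benjamini-Hochberg adjustment over 15460 genes. The SE is the log2 fold change divided by the square root of F. The fit was tested on simulated data. Alternatives were DESeq2 1.42.0, limma 3.58.1 (voom, and log2 of FPKM plus 1 or 0.1), other scalings and filters, an acinar covariate, fits of the compared groups only, and fits without single libraries or the 3 ribosomal-rich ones. The members and lists were chosen with earlier results of these data known. Named genes were the members, fixed pathway genes, up to 4 genes of smallest p per list against WT in hIAPP and rIAPP (2 in other comparisons), and the 3 most similar profiles per member. Alb, Ttr, Fgb and Apoa1 were named outside the rule, with values seen. The result of 1 gene is not reported here.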

Additional observations from a re-analysis of the deposited data

How the results depend on the processing

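Of 1375 member differences recomputed on counts, 1280 kept their direction and side of the threshold, 46 no longer passed, 19 newly passed and 30 changed sign. Ucn3 and Slc2a2 in hIAPP and rIAPP, Ucn3 in hIAPP_hCAST and G6pc2 in rIAPP, each against WT, passed in all 25 alternatives on counts. No paired analysis was possible because the title numbers are not shared between groups and replicate numbers follow the order of deposit. Depth limits Npas4 most, with 31 counts in rIAPP 2 and 43 in WT 2. Where a cause is not named, the cause was not tested.

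DESeq2 called 3 members in hIAPP_hCAST against WT and 2 against hCAST, and the acinar covariate 2 against WT. Voom called 5 in rIAPP against hCAST, and fitting only the compared groups called 0 in hIAPP_hCAST against hCAST. Leaving out 1 library gave 1 to 2 calls in hIAPP against hCAST, 0 to 1 in hIAPP_hCAST against hCAST and 1 to 3 in hIAPP_hCAST against WT.

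Values that changed sign on counts were near 0 except for Npas4. Against WT in hCAST they were 0.0155 (Slc2a2) and 0.0134 (G6pc2) with pan-endocrine scaling, 0.0432 (G6pc2, voom) and -0.44 (Npas4, DESeq2). The G6pc2 interaction was -0.0009 with upper quartile, -0.16 with pan-endocrine scaling and -0.0734 with voom, G6pc2 in hIAPP_hCAST against hIAPP was 0.0238 with the acinar covariate, and Mlxipl in hIAPP_hCAST against hCAST was 0.0355 with pan-endocrine scaling. That scaling moved the median of all genes by 0.26 in hIAPP and 0.28 in rIAPP against WT. Without the 3 ribosomal-rich libraries Npas4 was 1.06 in hIAPP and 0.0269 in rIAPP against WT, and -0.46 for the interaction. WT 1 is then the only WT library.
Leaving out 1 library took these differences across 0. Npas4 against WT ran from -0.67 to 0.75 in hCAST (above 0 except without WT 1 or hCAST 3), from -0.0698 to 1.35 in hIAPP_hCAST (below 0 without WT 1) and from -1.27 to 0.15 in hIAPP (above 0 without WT 2). In hCAST against WT, G6pc2 ran from -0.20 to 0.0252 and Slc2a2 from -0.18 to 0.024. The G6pc2 interaction ran from -0.0948 to 0.15. In hIAPP_hCAST, G6pc2 against hIAPP ran from -0.18 to 0.0704 and Mlxipl against hCAST from -0.15 to 0.12.

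The deposited FPKM divide by totals that include the ribosomal-rich reads, so WT 2, WT 3 and rIAPP 2 are scaled down. With FPKM + 1 the median of all genes moved by 1.26 in hIAPP, 1.26 in hCAST, 1.30 in hIAPP_hCAST and 0.80 in rIAPP against WT, and the values below include that shift. Calls were 0 in hIAPP, 0 in rIAPP, 3 in hCAST and 2 in hIAPP_hCAST against WT, 0 in hIAPP and 1 in hIAPP_hCAST against rIAPP, and 0 in hIAPP, rIAPP and hIAPP_hCAST against hCAST; with FPKM + 0.1 they were 0, 0, 4 and 2 against WT and 0 in each of the others.
Values with FPKM + 1 in hIAPP, hCAST, hIAPP_hCAST against WT and the interaction were 1.04, 1.71, 1.05 and -1.69 for Ucn3, 0.72, 1.92, 1.21 and -1.44 for Slc2a2, and 1.38, 1.92, 1.36 and -1.94 for G6pc2. With FPKM + 0.1 they were 1.05, 1.73, 1.07 and -1.71, then 0.73, 1.94, 1.22 and -1.45, then 1.38, 1.93, 1.36 and -1.95. For Mlxipl in hIAPP, rIAPP, hCAST, hIAPP_hCAST and the interaction they were 1.44, 0.67, 1.67, 1.68 and -1.43 with + 1, and 1.55, 0.75, 1.78, 1.79 and -1.54 with + 0.1. Npas4 in hIAPP and the interaction was 0.68 and -0.17, then 1.16 and -0.51. Ucn3 in hIAPP_hCAST against hIAPP was 0.013 with either, and Mlxipl in hIAPP_hCAST against hCAST 0.008 and 0.0081. FPKM rescaled without those reads, an alternative chosen after seeing the data, called 0 in hIAPP_hCAST against hCAST and gave -0.0099 for the G6pc2 interaction, 0.0083 for Mlxipl in hIAPP_hCAST against hCAST and -0.13 for Npas4 in hCAST against WT; 49 of its 55 values kept direction and side.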
